A study of Mus musculus with 2 samples.

Results

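Mature migratory Ccr7+ dendritic cells were taken from CD45+ cells of mouse liver metastases as the cells that carried at least 1 UMI (a counted RNA molecule) of 3 or more of Ccr7, Fscn1, Ccl22 and Cacnb3 and 0 UMIs of Cd3e, Cd79a and Siglech. They were thus chosen by measured counts of these genes, which are given as a description. They were 57 of 19999 filtered cells, 26 of 9814 in the Ctrl library and 31 of 10185 in the KD library. Tumours came from MC38-LM3b, a derivative of the mouse colorectal cancer line MC38 selected for spread to the liver, carrying a scrambled hairpin (shScramble, Ctrl) or a hairpin against SLAMF3 (shSLAMF3, KD). The gene of SLAMF3, a surface receptor, is Ly9. The cells were injected into the spleen of C57BL/6 mice aged 6 to 8 weeks, and liver lesions were taken 2 weeks later. The lesions of 3 mice were pooled in each group, so each group is 1 library of 1 tumour line, with no replicate and no test, and cells of 1 library are not replicates. The hairpin was placed in the tumour cells and not in the host. Intervals below are exact 95% intervals and cover counting error only.

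Dendritic cells take up antigen in tissue, and on maturation they stop doing so, load MHC molecules, raise costimulatory ligands and migrate to the draining lymph node. CCR7 is the receptor that guides this movement along CCL19 and CCL21, and fascin (Fscn1) bundles the actin of their dendrites. In tumours this state is known for holding activating molecules (CD40, CD80, CD86, IL-12) and restraining ones (PD-L1 from Cd274, PD-L2, CD200) together. CCL17 and CCL22, its chemokines, both bind CCR4, a receptor of regulatory and type 2 helper T cells.

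Ccl17 and Ccl22 lie in the same region of chromosome 8, and their promoters are shown because the 2 chemokines were counted in the same cells, as described below. The promoter of Cxcl10, an interferon-induced chemokine, is shown for contrast. All 3 are RefSeq sequences of the GRCm38.p6 build, from 250 bases before to 50 bases after the annotated start. The windows are chr8:94745434-94745733 on the plus strand for Ccl22, chr8:94810203-94810502 on the plus strand for Ccl17 and chr5:92348840-92349139 on the minus strand for Cxcl10. Capitals mark matches to the motifs named after the sequences.
Ccl22: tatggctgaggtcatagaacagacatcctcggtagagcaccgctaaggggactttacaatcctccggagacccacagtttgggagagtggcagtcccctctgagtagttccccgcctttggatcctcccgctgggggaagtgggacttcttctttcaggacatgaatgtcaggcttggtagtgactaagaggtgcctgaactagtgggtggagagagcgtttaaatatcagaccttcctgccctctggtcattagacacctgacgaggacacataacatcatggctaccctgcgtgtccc
Ccl17: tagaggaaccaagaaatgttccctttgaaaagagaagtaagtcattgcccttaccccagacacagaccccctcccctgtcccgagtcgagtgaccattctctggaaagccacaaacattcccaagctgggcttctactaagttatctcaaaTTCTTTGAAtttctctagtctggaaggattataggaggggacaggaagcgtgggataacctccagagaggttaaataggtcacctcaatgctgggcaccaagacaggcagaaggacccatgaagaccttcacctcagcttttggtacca
Cxcl10: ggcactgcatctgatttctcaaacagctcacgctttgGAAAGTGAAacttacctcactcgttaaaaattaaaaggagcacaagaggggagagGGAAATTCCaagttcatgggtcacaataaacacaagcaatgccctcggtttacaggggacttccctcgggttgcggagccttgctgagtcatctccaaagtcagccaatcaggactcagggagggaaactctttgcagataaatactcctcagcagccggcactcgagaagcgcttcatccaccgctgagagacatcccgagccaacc
The motifs searched on both strands were GGNNTTTCC (part of the NF-kB motif), GAAANNGAA (part of the interferon-stimulated response element) and TTCNNNGAA (STAT), and no 2 matches overlapped. The Ccl17 window held 1 TTCNNNGAA, the Cxcl10 window held 1 GAAANNGAA and 1 GGNNTTTCC (the latter on the other strand), and in the Ccl22 window these letters were not found. Among 32851 promoters of this length, 8.30% held TTCNNNGAA, 8.56% GAAANNGAA and 5.82% GGNNTTTCC. A match is a description of the letters and not a binding site. The Ccl17 start lies 64.8 kb downstream of the Ccl22 start.

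The label was checked with genes the rule did not use. Flt3, the dendritic cell growth factor receptor, had 42 UMIs in Ctrl members and 52 in KD members, at 238 and 213 CPM (counts per 1000000 of their summed UMIs), and 0 CPM in macrophage-like cells of both libraries, since those were chosen to lack it. Zbtb46, a transcription factor of conventional dendritic cells (cDCs), stood at 193 and 164 CPM in members, against 2.64 and 3.83 CPM in macrophage-like cells. Cd209a, a marker of type 2 cDCs, had 0 UMIs in members of either library, which allows up to 17.0 CPM in Ctrl and 12.3 CPM in KD (3 counts). The type 1 markers Xcr1 (3 and 0 UMIs) and Clec9a (5 and 3 UMIs) were near 0. Over lists of 10 genes each, type 1 genes summed to 290 and 352 CPM in members, against 2515 and 2751 CPM in the cDC1-like cells defined below. Type 2 genes summed to 272 and 278 CPM, against 1584 and 1798 CPM in Cd209a+ cDC2-like cells. Both sets were chosen by some of these genes. Members therefore carried pan-dendritic genes and lower levels of subset genes than these sets. Only 14 Ctrl and 21 KD members held a UMI of Ptprc, the gene of CD45.

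Of the 26 Ctrl members, 25 held Cacnb3, 23 Fscn1, 20 Ccr7 and 16 Ccl22. Of the 31 KD members, 31 held Ccr7, 29 Cacnb3, 28 Fscn1 and 20 Ccl22. All 4 genes were present in 6 Ctrl and 15 KD members. Just outside the rule, 35 cells in each library carried exactly 2 of the 4 genes. Relb, an NF-kB subunit of dendritic cell maturation, stood at 152 CPM (Ctrl) and 117 CPM (KD) in these cells, against 527 and 601 CPM in the cells with exactly 3. Another 4 Ctrl and 2 KD cells had at least 3 of the genes and were left out for Cd3e, Cd79a or Siglech UMIs.

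Several cells stood apart from the label. The largest Ctrl member, with 26607 UMIs (15.1% of all UMIs of Ctrl members), held 8 UMIs of Krt8 and 4 of Krt18, keratins of epithelial cells, and 93 of the 95 Ccl2 UMIs of the Ctrl members. It held 1 UMI of Cd74 and 0 of Ccl5, and is called the keratin cell below. A further 3 Ctrl members and 1 KD member held at least 10 UMIs of Lyz2 or C1qb, genes of macrophages. Without all of these, 22 Ctrl and 30 KD members remained. Several results that rest on them are given both ways, and others with the UMIs that these cells held. The summed level of 9 macrophage markers was 1459 CPM in Ctrl members (top cell 108 of 257 UMIs) and 377 CPM in KD members (top cell 57 of 92 UMIs), with none of the 9 at 0, against 17497 and 20990 CPM in macrophage-like cells. Without the keratin cell and the Lyz2 or C1qb cells the sums were 151 and 153 CPM. Macrophage genes were thus far lower in members than in macrophage-like cells, which were chosen by some of these genes. The sums were close in both libraries once the marked cells were left out. Lyz2 and C1qb are among the 9 markers and chose the cells left out, so that this closeness follows in part from the choice. The 6 neutrophil markers summed to 34.1 and 135 CPM, and the 8 T cell markers to 28.4 and 86.0 CPM. Their part in the results was not tested. The deposited libraries shared 27 barcodes, and none of these was a member. Doublets were marked by Scrublet in 1 member of each library, and the keratin cell was not marked. Members of the KD library were the deeper ones, with a median of 7035 UMIs per cell (2414 to 15597) against 4909 (1055 to 26607) in Ctrl.

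The share of these cells among all filtered cells was 0.265% (0.173 to 0.388) in Ctrl and 0.304% (0.207 to 0.432) in KD, a difference of 0.0394 percentage points (-0.118 to 0.196). Among the dendritic cells, made up of members, cDC1-like cells (at least 3 of Xcr1, Clec9a, Wdfy4, Naaa and Batf3) and Cd209a+ cDC2-like cells (with Cd209a and Flt3), members were 9.52% (26 of 273 cells, 6.32 to 13.6) in Ctrl and 8.54% (31 of 363 cells, 5.88 to 11.9) in KD. That difference was -0.984 points (-5.89 to 3.66). Neither difference exceeded its counting error. When every cell was first thinned to 2000 UMIs and the rule applied again, 8 of 8573 Ctrl cells (0.0933%) and 23 of 9131 KD cells (0.252%) met it, a difference of 0.159 points (0.0294 to 0.295). Among the dendritic cells the thinned shares were 3.21% (8 of 249) and 6.48% (23 of 355). That difference of 3.27 points (-0.547 to 6.85) did not exceed its counting error. Among all filtered cells the rule thus picked KD cells more often at equal depth, which the unthinned share did not show. More such cells and more RNA of the 4 genes per cell cannot be told apart here.

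The members stood far from the other dendritic cells in both libraries, as the plot of gene levels across cell sets shows. The 15 genes with the largest smaller-of-2-libraries ratio of members over the higher of cDC1-like and cDC2-like cells were Fscn1, Cacnb3, Cd63, Tmem150c, Adcy6, Scin, Cd200, Slco5a1, Socs2, Il4i1, Slc22a23, Ccl22, Il12b, Mmp25 and Atxn1. Fscn1, Cacnb3 and Ccl22 chose the cells, and the other 12 come from the same cells, so that all 15 are a description. Cd63, a tetraspanin of late endosomes, stood at 925 CPM in Ctrl and 745 CPM in KD members, against 14.0 and 18.7 CPM in cDC1-like cells. Socs2, a suppressor of cytokine signalling, stood at 238 and 283 CPM against 3.63 and 8.61 CPM. Il12b, the p40 chain of IL-12 and IL-23, stood at 556 and 598 CPM against 29.0 and 32.3 CPM. Each of these genes was thus more than 10 times as abundant in members as in cDC1-like cells of the same library.

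**Figure D1:**
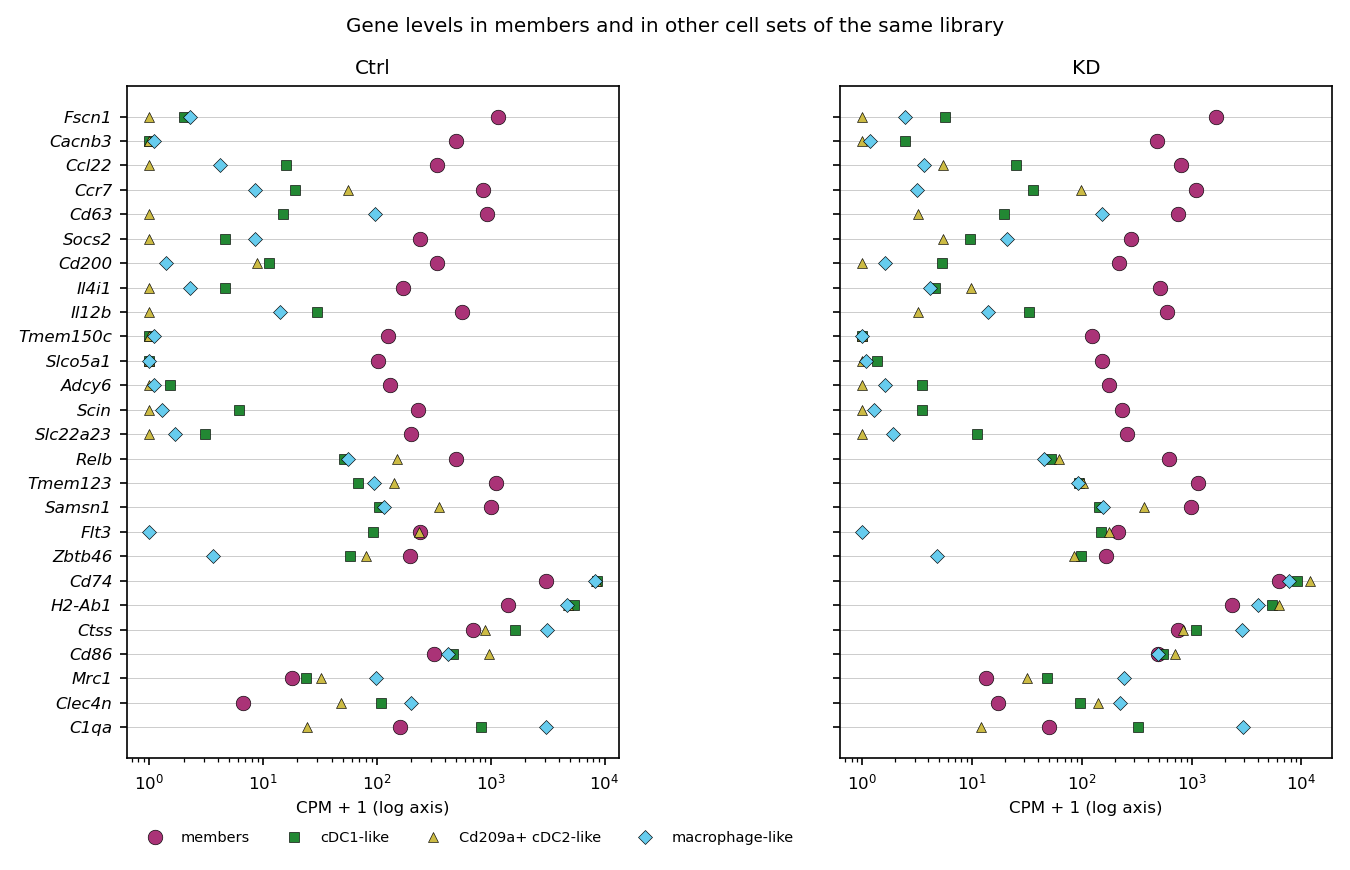
Levels of 26 genes (CPM + 1, log axis) in Ctrl (left) and KD (right), with 1 marker per cell set: members, cDC1-like, Cd209a+ cDC2-like and macrophage-like cells. In both libraries the members lie to the right for Fscn1 to Samsn1 and to the left of both other dendritic cell sets for Cd74, H2-Ab1 and Mrc1.

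For some genes these few cells held a large part of the UMIs of the whole library. Cacnb3, Ccl22 and Ccr7 helped choose the members, so that their parts follow in some measure from the rule and are a description. Members held 69.6% of the Cacnb3 UMIs of all filtered Ctrl cells and 68.0% of those in KD, and 66.7% of the Tmem150c UMIs in each library. Their part of the Ccl22 UMIs was 26.8% in Ctrl and 50.3% in KD, and that of Il12b 22.7% and 31.2%. Of the Ccl17 UMIs members held 4.40% in Ctrl and 26.0% in KD. The parts of Ccl22 and Ccl17 held by members were thus larger in KD, where 31 cells met the rule against 26 in Ctrl. Naive T cells also express Ccr7, which had 10.3% and 13.5% of its UMIs in members.

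Genes of antigen uptake were below the level of cDC1-like cells, and MHC class II was below the level of both other dendritic cell sets. The 12 genes of uptake and pathogen sensing summed to 579 CPM in Ctrl and 295 CPM in KD members, against 1188 and 938 CPM in cDC1-like cells. In Cd209a+ cDC2-like cells they summed to 612 and 1083 CPM, so that Ctrl members were close to that set. Clec7a (dectin-1) made up 60 of the 102 Ctrl UMIs and 32 of the 72 KD UMIs of this list. MHC class II genes summed to 12222 CPM in Ctrl and 19862 CPM in KD members, against 29755 and 30988 CPM in cDC1-like cells. The sums in Cd209a+ cDC2-like cells were 29487 and 37871 CPM. Members were thus below cDC1-like cells for both lists. MHC class I genes were the reverse, at 11360 and 9810 CPM against 8751 and 6706 CPM. The 12 cell cycle genes summed to 125 and 160 CPM in members and to 698 and 649 CPM in cDC1-like cells. The cDC1-like cells themselves carried C1qa, at 820 CPM in Ctrl and 322 CPM in KD.

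Next, KD members were compared with Ctrl members to ask which genes differ in these cells when the tumour cells carry the hairpin against SLAMF3. UMIs were summed over the members of each library, and 1326 genes had at least 50 UMIs over both. By a fixed rule of size, a log2 ratio of at least 1 or at most -1, 51 genes were higher in KD (3.85% of the genes compared) and 64 lower (4.83%), with a median log2 ratio of -0.038 over all of them. Without the keratin cell, 40 of 1237 genes were higher (3.23%) and 48 lower (3.88%). Without the keratin cell and the Lyz2 or C1qb cells, 30 of 1042 genes were higher (2.88%) and 46 lower (4.41%). Other scalings move every ratio upward by a constant, 0.13 with TMM factors and 0.22 with median-of-ratios factors on the log2 scale, so that ratios are best read against that shift. Ly9 itself had 1 UMI in Ctrl members and 5 in KD members, which are host cells and do not carry the hairpin, so that the knockdown could not be checked in them.

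Ccl17, like Ccl22 a CCR4 ligand, headed the 10 highest genes by the naming rule. It had 7 UMIs in Ctrl members (3 cells, with 2, 2 and 3 UMIs) and 209 in KD members (12 cells). The KD cells with a Ccl17 UMI held 1 to 102 UMIs, and 5 of them held 11 or more, while no Ctrl cell exceeded 3. The log2 ratio was 4.43 (3.36 to 5.76), 4.19 without the keratin cell, 4.29 without the top cell of each library and 2.08 when cells with 2 of the 4 rule genes were included. Ccl17 was thus higher in KD, mostly through a few cells. With every cell thinned to 2000 UMIs, 2 of 22 Ctrl cells (9.09%, 1.12 to 29.2) and 6 of 31 KD cells (19.4%, 7.45 to 37.5) held a Ccl17 UMI, so that the share of positive cells did not differ beyond counting error while the level did. T cell-like cells, used as the background of free RNA, held Ccl17 in 0 of 2924 (which allows up to 0.103%) and 1 of 1737 cells at that depth. Their median depths before thinning were 7012 UMIs in Ctrl and 5440 in KD. In cDC1-like cells Ccl17 was also higher in KD, at 80.7 against 23.3 CPM (log2 ratio 1.79).

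Ccl22 had 59 UMIs in 16 Ctrl members (at most 12 in a cell) and 197 in 20 KD members (at most 47). The log2 ratio of its CPM was 1.27 (0.84 to 1.71), and 1.06 without the keratin cell. It was 0.65 without the keratin cell and the Lyz2 or C1qb cells, 0.090 with equal weight for each cell, and -0.13 when cells with any UMI of Cd3d, Trac, Cd79b or Csf3r, or more than 1 of C1q, were also left out (the stricter exclusion). The direction of Ccl22 therefore rests on which cells are counted and how. Every cell with a Ccl17 UMI, 3 in Ctrl and 12 in KD, also held Ccl22, while 13 Ctrl and 8 KD cells held Ccl22 without Ccl17. Ccl22 helped choose the members, so this is a description.

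**Figure D2:**
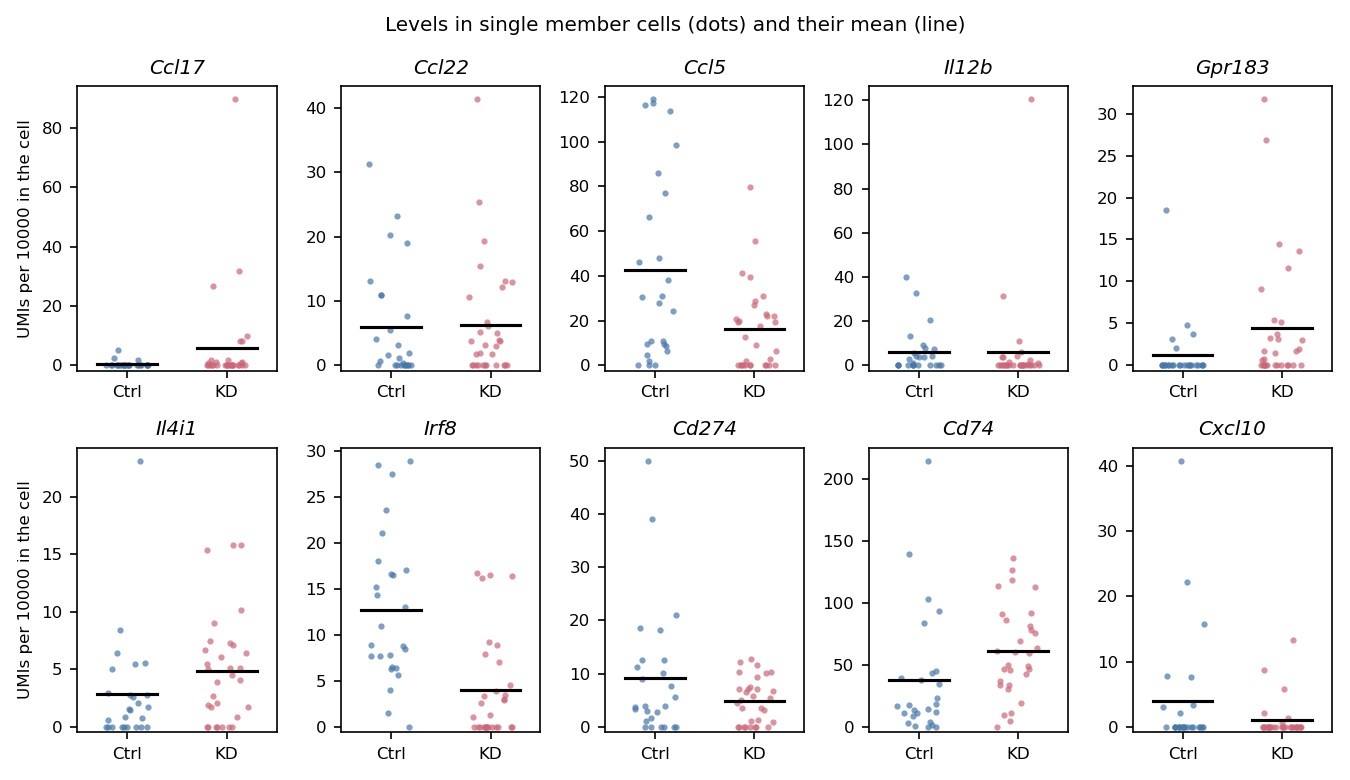
UMIs per 10000 UMIs in each member cell for 10 genes, with 26 Ctrl cells (blue) and 31 KD cells (red) as dots and the mean over cells as a line; axes start near 0 and differ between genes. Ccl17 is at 0 in most cells of both libraries and high in a few KD cells, while Irf8 is above 0 in 25 of 26 Ctrl cells and in 17 of 31 KD cells.

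The other chemokines moved in both directions. Ccl5, a chemokine that attracts T cells, had 566 UMIs in 23 Ctrl members (median 13.5 over all cells, at most 75) and 359 in 20 KD members (median 5, at most 63). The log2 ratio was -1.13 (-1.32 to -0.93), -1.36 without the keratin cell and -1.22 without the top cells. It turned to 0.24 when cells with 2 of the 4 rule genes were included, so that the lower Ccl5 of KD members depends on the number of rule genes required. Ccl5 is also abundant in T cells, where 79.0% and 74.3% of T cell-like cells held it at 2000 UMIs, against 77.3% (17 of 22) and 61.3% (19 of 31) of members. Ccl5 was held by most members and by most T cell-like cells alike. Cxcl10, which attracts CXCR3+ T cells, had 66 UMIs in 8 Ctrl members and 25 in 6 KD members, a log2 ratio of -1.87 (-2.60 to -1.19). Of the Ctrl UMIs, 25 were in 1 Lyz2 or C1qb cell, 3 in another and 8 in the keratin cell, so that much of the Ctrl level came from cells set apart above. Its counterpart Cxcl9 had 54 and 52 UMIs (log2 ratio -0.53, -1.10 to 0.051).

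Ccl4 (4 and 56 UMIs) was higher by 3.34 on the log2 scale, but 44 of the KD UMIs were in 1 cell. Without the keratin cell and the Lyz2 or C1qb cells the ratio was 0.57. Ccl2, a monocyte attractant, had a ratio of -4.72 that came from the keratin cell and was 0.61 without it. Of 11 chemokines in the list, 7 had at least 50 UMIs, 2 were past the size rule upward (Ccl17, Ccl4) and 3 downward (Ccl5, Ccl2, Cxcl10). The median was -0.53 with the keratin cell and 0.16 without it. Ccl19, the CCR7 ligand, had 0 UMIs in both libraries.

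Among transcription factors of dendritic cells, Irf8, which directs the type 1 lineage and Il12b, was lower in KD. Ctrl members held 195 Irf8 UMIs in 25 of 26 cells (median 5, at most 34) and KD members 128 in 17 of 31 cells (median 1, at most 22). The log2 ratio was -1.08 (-1.41 to -0.75), -1.29 without the keratin cell, -1.66 with equal weight for each cell and -0.67 when all 4 rule genes were required. Fewer KD cells also held the gene at equal depth. At 2000 UMIs per cell 81.8% of Ctrl members (18 of 22, 59.7 to 94.8) and 38.7% of KD members (12 of 31, 21.8 to 57.8) held it. T cell-like cells, some of which express Irf8, held it in 29.0% and 14.5% at that depth. Irf4, a factor of the type 2 lineage and of migration, had 0 UMIs in Ctrl and 12 UMIs in 7 KD members. At 2000 UMIs per cell, 0 of 22 Ctrl and 1 of 31 KD members held Irf4, against 13.4% and 10.8% of T cell-like cells, so that no difference was read from it.

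The other genes of dendritic cell identity differed less. Flt3 (log2 ratio -0.16), Zbtb46 (-0.24), Id2 (-0.040) and Batf3 (0.16) had intervals that include 0. Dpp4 (CD26), a surface peptidase, had 21 UMIs in 9 Ctrl cells and 54 in 22 KD cells, with a ratio of 0.89 (0.14 to 1.69). Irf8 was the 1 gene of the 6 with at least 50 UMIs past the size rule. Wdfy4, needed for cross-presentation, had 4 and 33 UMIs, with 16 of the KD UMIs in 1 cell and 7 in another. Naaa, another type 1 gene, had 12 and 1.

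For movement and adhesion, 9 of 10 genes had at least 50 UMIs, 1 was past the size rule and the list median was 0.42. The median was 0.21 without the keratin cell, 0.12 without the Lyz2 or C1qb cells as well and -0.0053 with the stricter exclusion of other lineages. The gene past the rule was Gpr183 (EBI2), a receptor for oxysterols that guides dendritic cells and lymphocytes within lymphoid tissue. It had 19 UMIs in 5 of 26 Ctrl cells (at most 9) and 118 in 18 of 31 KD cells (at most 31), with a log2 ratio of 2.16 (1.46 to 2.95) and 1.93 without the keratin cell. With all 4 rule genes required the ratio was 0.067, so that members with all 4 showed almost none of the difference. At 2000 UMIs per cell, 18.2% of Ctrl (4 of 22, 5.19 to 40.3) and 45.2% of KD members (14 of 31, 27.3 to 64.0) held Gpr183, with intervals that overlap. T cell-like cells, which express it too, held it in 13.2% and 17.0%. Anxa3 (62 and 150 UMIs) had a ratio of 0.80 (0.37 to 1.25). Tmem123 (1107 and 1138 CPM) and Samsn1 (1005 and 983 CPM), abundant in members of both libraries, had ratios of 0.040 and -0.032 with intervals that include 0.

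Il4i1, an amino acid oxidase that restrains T cells, had 30 UMIs in 17 Ctrl members (at most 4 in a cell) and 127 in 24 KD members (at most 18). Its log2 ratio was 1.61 (1.03 to 2.24), 1.37 without the keratin cell and 1.13 without the keratin cell and the Lyz2 or C1qb cells. With equal weight for each cell it was 0.77, under the size rule. At 2000 UMIs per cell 18.2% of Ctrl (4 of 22, 5.19 to 40.3) and 51.6% of KD members (16 of 31, 33.1 to 69.8) held it, against 0.239% and 0.461% of T cell-like cells. It was the 1 gene of the 6 regulatory genes with at least 50 UMIs that was past the size rule upward.

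Among the other restraining genes with at least 50 UMIs, none was past the size rule over all members, and 2 were past it downward without the keratin cell and the Lyz2 or C1qb cells. Cd274, the gene of PD-L1, had 172 UMIs in 20 Ctrl members and 139 in 23 KD members, a log2 ratio of -0.78 (-1.11 to -0.45) that was -0.99 without the keratin cell and -0.020 with all 4 rule genes required. In 1 Ctrl cell it had 46 UMIs, and without the top cells the ratio was -0.50. Cd274 was lower in KD in the other sets as well, with a ratio of -0.94 in cDC1-like, -1.41 in cDC2-like and -0.63 in macrophage-like cells. Cd200 had 59 and 53 UMIs with a ratio of -0.63 (-1.19 to -0.066). Pdcd1lg2 (PD-L2; 24 and 31 UMIs) had a ratio of -0.10, and Socs2 (42 and 69 UMIs) one of 0.24, both with intervals that include 0. Aldh1a2, an enzyme that makes retinoic acid, was among the 7 of 13 regulatory genes under the minimum and had 2 UMIs in 2 Ctrl cells and 23 in 9 KD cells.

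The genes of the costimulation list that met the 50 UMI minimum were Cd80, Cd86, Cd40, Cd83 and Il15ra, with a list median of 0.42. The median was 0.18 without the keratin cell and turned to -0.31 with thinned cells and -0.36 with equal weight for each cell, so that the list had no stable direction. Cd86 was at 318 CPM in Ctrl and 491 CPM in KD, a log2 ratio of 0.63 (0.16 to 1.11), and at 0.12 with equal weight. Cd40 (23 and 49 UMIs) was at 0.62 (-0.12 to 1.40) and Cd80 at -0.41 (-1.03 to 0.21). Il15ra, which presents IL-15, was the gene past the size rule, with 43 and 29 UMIs and a ratio of -1.04 (-1.77 to -0.33). Tnfsf4 (OX40L), with 2 UMIs in Ctrl and 21 in 4 KD cells, was under the minimum.

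NF-kB genes, which drive maturation, had a median log2 ratio of 0.36, with 10 of 12 genes at 50 UMIs or more and 1 past the size rule. Nfkb1 was at 0.57 (0.21 to 0.93), Nfkbia, the inhibitor that NF-kB itself induces, at 0.49 (0.21 to 0.77), and Relb at 0.34 (-0.046 to 0.74). The top KD cell held 27.8% of the KD UMIs of Nfkbia and 15.6% of those of Nfkb1. Tnfaip3 (A20), a brake on NF-kB, had 23 and 66 UMIs with a ratio of 1.05 (0.35 to 1.80) and 0.81 without the keratin cell. It turned to -0.41 with all 4 rule genes required and to -0.19 with thinned cells. T cell-like cells held Tnfaip3 in 48.2% and 57.0% at 2000 UMIs, against 22.7% and 48.4% of members. The median of the list was 0.20 without the keratin cell, -0.090 with all 4 rule genes and -0.11 with thinned cells. The cytokines showed no common direction. Il12b had 98 UMIs in 14 Ctrl cells and 146 in 11 KD cells, 70 of them in 1 cell, with a ratio of 0.10 (-0.28 to 0.49), and -0.50 without the top cell of each library. Il1b (89 and 50 UMIs) was at -1.30 (-1.83 to -0.79), with 34 of the Ctrl UMIs in 1 Lyz2 or C1qb cell and 26 of the KD UMIs in 1 cell. Tnf had 2 and 28 UMIs, with 15 of the KD UMIs in 1 cell and 8 in the KD Lyz2 or C1qb cell.

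**Figure D3:**
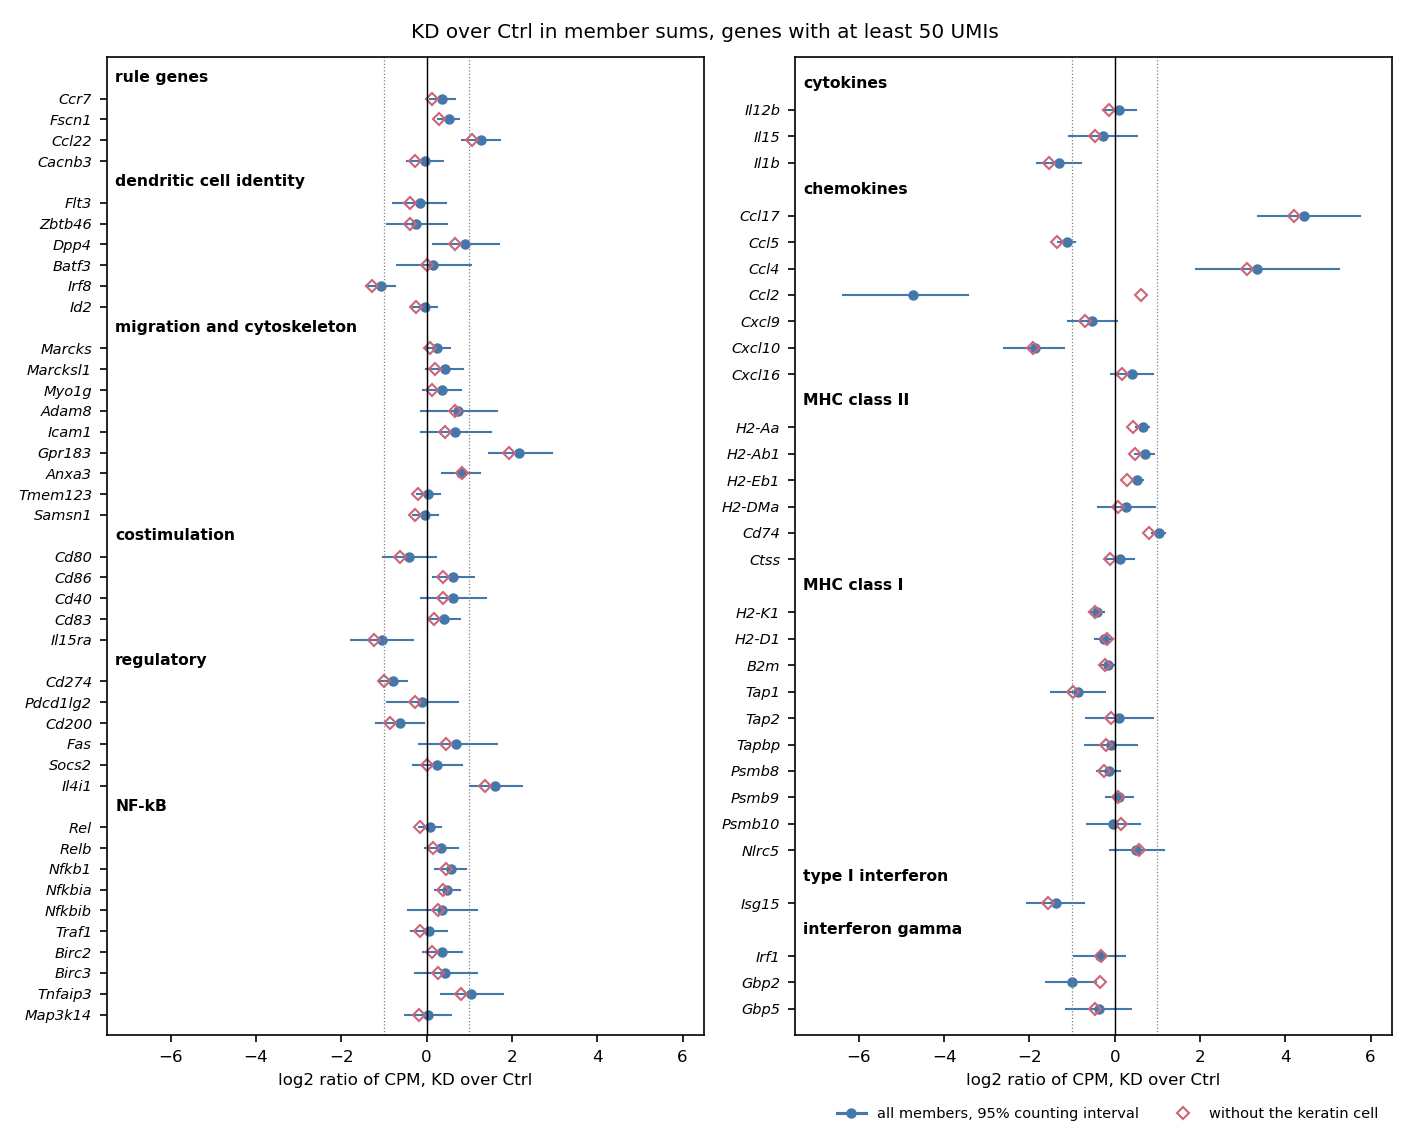
Log2 ratio of CPM (KD over Ctrl) in summed members for listed genes with at least 50 UMIs, less 1 gene that is not reported here; dots with lines are all members with the 95% counting interval, open diamonds the value without the keratin cell, and dotted lines a log2 ratio of 1 and -1. Ccl17, Ccl4 and Gpr183 lie far to the right, Ccl2 moves from -4.72 to 0.61 without the keratin cell, and the MHC class II genes lie to the right of 0.

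MHC class II genes were higher in KD members. Their 12 genes summed to 12222 CPM in Ctrl and 19862 CPM in KD, a log2 ratio of 0.70 (0.63 to 0.77). Cd74, the invariant chain, had 538 UMIs in Ctrl (median 8 per cell, at most 87) and 1521 in KD (median 42, at most 189), a ratio of 1.03 (0.89 to 1.17). H2-Aa was at 0.66, H2-Ab1 at 0.70 and H2-Eb1 at 0.53. Of the list, 6 genes had at least 50 UMIs and 1 of them, Cd74, was past the size rule, and none without the keratin cell. The median was 0.59, and 0.36 without the keratin cell and 0.28 without the Lyz2 or C1qb cells as well. Cd74 was at 0.12 in cDC1-like cells and 0.51 in cDC2-like cells.

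MHC class I genes were little different, with a median of -0.11 over 10 genes and none past the size rule. H2-K1 was at -0.42 (-0.60 to -0.24), B2m at -0.17 (-0.32 to -0.0081) and Tap1, the peptide transporter, at -0.85 (-1.48 to -0.23). B2m turned to 0.052 with median-of-ratios factors.

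The summed interferon genes were lower in KD members, with much of the Ctrl sum in single cells. The 10 genes induced by interferon gamma summed to 1465 CPM in Ctrl and 778 CPM in KD, a log2 ratio of -0.91 (-1.19 to -0.64), and the 12 of type I interferon to 840 and 409 CPM (-1.04, -1.42 to -0.66). In Ctrl, 1 cell held 63 of the 148 type I UMIs and the keratin cell 73 of the 258 interferon gamma UMIs. Without the top cell of each library the sums were 496 and 339 CPM for type I and 1237 and 733 CPM for interferon gamma. Without the keratin cell and the Lyz2 or C1qb cells, type I genes summed to 1188 and 424 CPM. Interferon gamma genes then summed to 1179 and 805 CPM. At least 50 UMIs were found for 1 of the 12 type I genes and 4 of the 10 interferon gamma genes, and 1 and 2 of these were past the size rule downward, or 1 and 1 without the keratin cell. Isg15 was at -1.38 (-2.05 to -0.72), with 26 of 58 Ctrl UMIs of Isg15 in 1 cell, and turned to 0.60 when the rule was applied to thinned cells. Gbp2 was at -1.01, and -0.34 without the keratin cell, which held 30 of its 64 Ctrl UMIs. The interferon gamma list median was -0.70 in members with 4 genes, -1.30 in cDC1-like cells with 10 and -1.07 in macrophage-like cells with 10.

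Over all genes, the 10 with the highest ratios by the naming rule were Ccl17, Map3k5, Egr1, Apol7c, Adam23, Eno3, Gpr183, Ptgs2, Dab2 and Prnp. Several rested on single cells. Map3k5 (ASK1, a stress kinase) had 3 UMIs in Ctrl and 60 in KD, 31 of them in 1 cell. Egr1 had 5 and 70 (41 in 1 cell) and Dab2 8 and 42 (35 in the KD Lyz2 or C1qb cell). The top KD cell of Map3k5 was also that of Egr1, and it held 31 Gpr183 UMIs. Adam23, an adhesion protein, was spread more widely, with 11 UMIs in 6 Ctrl cells and 73 in 14 KD cells (log2 ratio 2.26, 1.34 to 3.32). Eno3, a muscle enolase, had 8 UMIs in 4 and 54 in 16 cells (2.28, 1.20 to 3.57). Apol7c, a pore-forming protein of dendritic cells linked to cross-presentation, had 6 UMIs (5 in 1 cell) and 44 UMIs (24 in 1 cell), with a ratio of 2.40 (1.17 to 3.92), and members held 44.0% of its UMIs in the KD library.

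Among the 10 lowest were Ccl2, Aprt, Abtb2, Nfil3, Gpd2, Pde4d, Set and Dstn. Aprt and Set came largely from the keratin cell, which moved their ratios from -1.97 to -0.71 and from -1.45 to -0.60. Abtb2, a gene with ankyrin repeats, had 102 UMIs in 16 Ctrl cells and 40 in 14 KD cells, a ratio of -1.82 (-2.39 to -1.28). Nfil3, a transcription factor that promotes type 1 cDCs, had 40 UMIs in 13 and 18 in 8 cells (-1.62, -2.51 to -0.79).

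Within the members, cells with and without Ccl5 differed in other genes, shown in the heat map of single cells. In KD, 20 members held a Ccl5 UMI and 11 did not, and in Ctrl the numbers were 23 and 3. All 23 Ctrl cells with Ccl5 also held Irf8, as did 2 of the 3 without. Cd74 in Ctrl stood at 3174 CPM with Ccl5 and 2575 CPM without, but 1 of the 3 cells without was the keratin cell. That cell held 26607 UMIs and 1 Cd74 UMI. The other 2 held 83 Cd74 UMIs among 3862 UMIs and 7 among 4873, so that no direction was read in Ctrl. In KD, Irf8 stood at 722 CPM in cells with Ccl5 and 226 CPM in cells without, and Il12b at 871 and 185 CPM, or 411 CPM with Ccl5 when the cell with 70 of the 128 Il12b UMIs was left out. The other way round, Gpr183 stood at 136 CPM with Ccl5 and 1007 CPM without, Tnfsf4 at 13.6 and 195 CPM, and Cd74 at 4186 and 9309 CPM. Of the 98 Gpr183 UMIs in cells without Ccl5, 31 were in 1 cell. Tnfsf4, under the 50 UMI minimum, had 2 UMIs in 1 cell with Ccl5 and 19 in 3 cells without. Fscn1, Ccr7, Relb and Tmem123, which mark the mature state, differed less, at 1954 and 1243, 1205 and 956, 647 and 596, and 1253 and 966 CPM. The cells without Ccl5 were the deeper ones in KD, with a median of 8274 UMIs against 5752. This split was chosen after the values were seen, and it is a description of 31 cells.

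**Figure D4:**
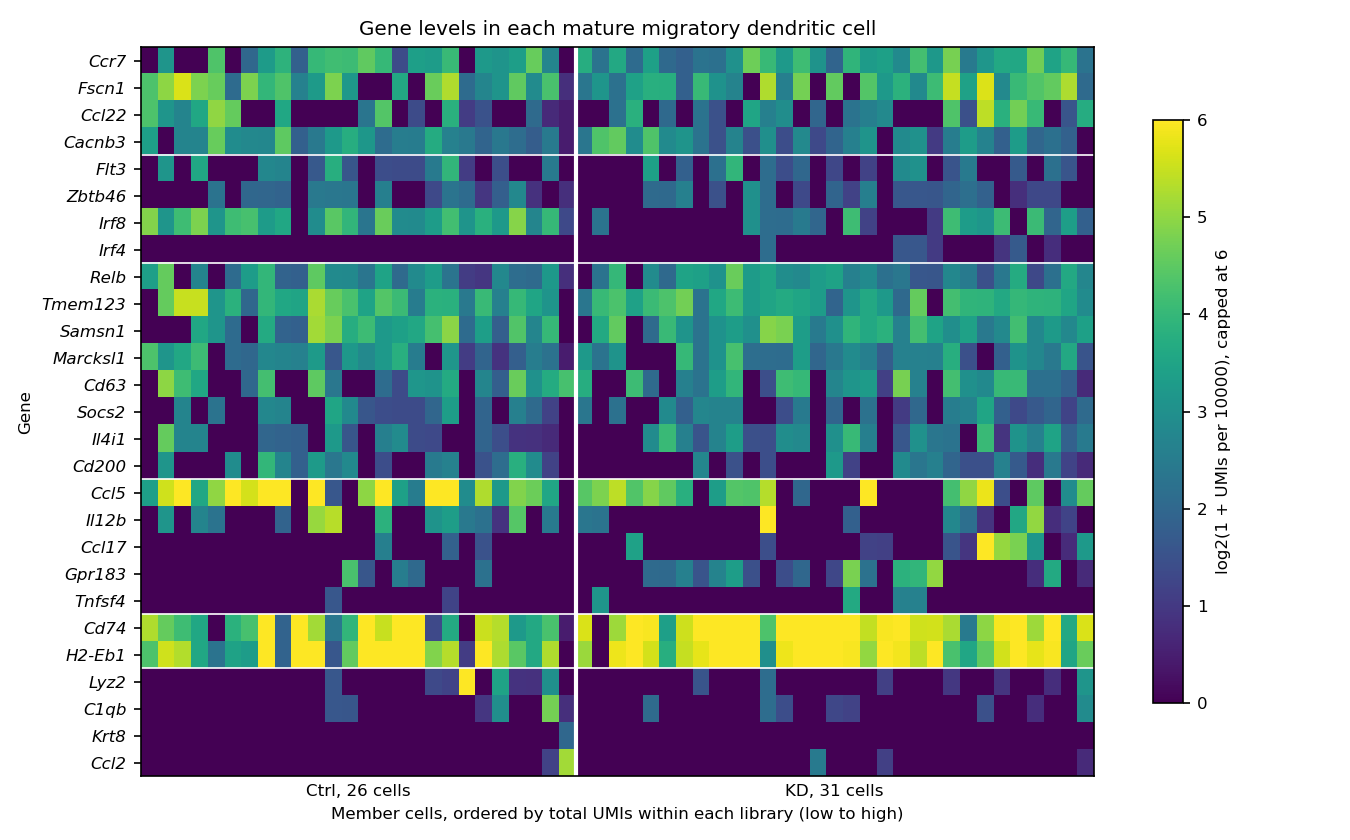
Levels of 27 genes (rows, log2 of 1 plus UMIs per 10000, capped at 6) in the 57 members (columns), Ctrl left and KD right, each ordered from low to high total UMIs. The last Ctrl column is the keratin cell with Krt8 and Ccl2, and Irf8 is dark in many KD cells while Gpr183 is seen in 18 KD cells and 5 Ctrl cells.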

How the data were processed

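Single cells of CD45+ liver metastasis suspensions were profiled by 10x Chromium 3' v3.1 chemistry in 2 libraries. The authors deposited raw UMI counts from Cell Ranger 7.1.0 (GRCm39, per the labels). Depth was 64259327 UMIs in 9814 filtered Ctrl cells and 61698394 in 10185 filtered KD cells. Barcodes over 30000 UMIs, over 6000 or under 200 genes, or over 10% mitochondrial UMIs were dropped, leaving 19999 of 21359. UMI counts were summed over members and expressed as CPM. Log2 ratios have exact conditional binomial intervals, and shares have Clopper-Pearson intervals. The 2-fold size rule replaces a test, since there is 1 library per group. Genes were named by list, by the 10 highest and 10 lowest ratios (5 CPM added, at least 50 UMIs, at least 0.5 times the level of every other cell set) and by the 15 highest ratios over other dendritic cells. A few genes that the rule named are not reported here. Members, lists and cell sets were chosen with earlier results of these data known. Scripts were tested on simulated counts. Tools were Python 3.11.15, SciPy 1.17.1, scanpy 1.11.5 (Scrublet, 0.8% per 1000 cells), and edgeR 4.0.16 and DESeq2 1.42.0 in R 4.3.3 for scaling factors only. Alternatives are in the closing section.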

Additional observations from a re-analysis of the deposited data

Results flagged for a closer look

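10 genes had a ratio in members with an interval on one side of 0 and a ratio in another dendritic cell set with an interval on the other side, and these differences between cell sets were not tested. All values are log2 ratios of KD over Ctrl. Against cDC1-like cells, Ccl5 was -1.13 in members and 0.46 in cDC1-like cells, Anxa3 0.80 and -0.52, Tcf4 1.00 and -0.84, Egr1 3.34 and -0.87, and Ptgs2 1.89 and -0.83. Against Cd209a+ cDC2-like cells, Clec7a was -1.38 in members and 0.70 in cDC2-like cells, Cd86 0.63 and -0.42, Nfkb1 0.57 and -0.50, Tnfaip3 1.05 and -0.73, Slamf7 1.05 and -0.82, and Egr1 3.34 and -1.25. Of the KD UMIs of Egr1 in members, 41 of 70 were in 1 cell, and of those of Tcf4, 41 of 83.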

How the results depend on the processing

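No paired analysis was possible because each group has 1 library and the result comes from no test. With 26 and 31 cells, the counting error of genes under 50 UMIs was too wide to read a ratio from. Differences in shares kept intervals that include 0, except the share of all filtered cells under the rule on cells thinned to 2000 UMIs. The counts of genes past 2-fold moved as follows. At least 20 UMIs gave 203 higher and 259 lower, at least 100 UMIs 17 and 20, and at least 1 UMI 3303 and 3652. TMM factors gave 42 lower, and median-of-ratios factors 78 higher and 31 lower. Cells with 2 of the 4 genes gave 215 lower, cells with all 4 gave 18 lower, and leaving out the keratin cell and the Lyz2 or C1qb cells gave 30 higher. Several list medians moved. Chemokines were at 0.23 with 2 of the 4 genes, 0.41 with all 4, 0.45 with thinned cells, 0.40 at 20 UMIs and 1.01 at 1 UMI. NF-kB was at -0.090 with all 4 genes and -0.11 with thinned cells, cytokines at 1.56 with all 4 genes and -1.60 with the stricter exclusion of other lineages, and costimulation at -0.31 with thinned cells and -0.36 with equal weight for each cell. MHC class II was at 0.83 with thinned cells, 0.36 without the keratin cell, 0.28 also without the Lyz2 or C1qb cells and 0.81 with median-of-ratios factors. Regulatory genes were at -0.63 with the stricter exclusion and -0.69 without the keratin and Lyz2 or C1qb cells.

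Among named genes, 169 of 1316 pairs of a gene and an alternative changed sign. Of these, 141 were genes whose interval over all members included 0, with 22 under the rule on thinned cells. The other 28 had an interval on one side of 0. These were, with 2 of the 4 genes, Ccl5 (0.24), Clec7a (0.31), Tcf4 (-0.39), Egr1 (-0.22) and Ptgs2 (-0.0062), and, with all 4, Ccr7 (-0.078), Cd86 (-0.046), Nfkbia (-0.51), Tnfaip3 (-0.41), Ccl4 (-0.26), Tcf4 (-1.26) and Prnp (-0.84). With a Flt3 or Zbtb46 UMI required, Ccl4 was at -1.21. With the rule on thinned cells they were Cd83 (-0.39), Tnfaip3 (-0.19), H2-D1 (0.092), Isg15 (0.60) and Aprt (0.95), and with the stricter exclusion Ccr7 (-0.24), Fscn1 (-0.31), Ccl22 (-0.13), C1qb (1.31) and Dab2 (-1.28). Without the keratin cell Ccl2 was at 0.61, and without the Lyz2 or C1qb cells as well Ccr7 was at -0.030 and C1qb at 0.57. B2m was at 0.052 with median-of-ratios factors and Fscn1 at -0.10 with equal weight. The cause was not tested. Ccl17, Irf8, Gpr183, Il4i1, Cd274 and Cd74 kept their direction under every alternative run for single genes, as did Cxcl10 except that the rule on thinned cells gave it no value, with Gpr183 down to 0.067 and Cd274 at -0.020 when all 4 genes were required. Removal of the keratin cell, of it together with the Lyz2 or C1qb cells, or of the top cells, and a stricter cDC1-like set (members then 17.6% of dendritic cells in Ctrl and 13.5% in KD), were chosen after seeing the data.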
